A study of Mus musculus with 10 samples.

Results

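The 36 genes described here encode aminoacyl-tRNA synthetases, the enzymes that join each amino acid to its tRNA before the ribosome can use it. They were taken by gene name from the array's probe annotation, 20 grouped as cytosolic and 16, whose names end in 2, as mitochondrial. The grouping is by name, so a gene whose enzyme serves both compartments would count as cytosolic. The members were 36 of the 27218 gene names on the array and 73 of its 41174 probes. All 36 had a probe well above background in at least 1 group and all 36 entered the tests, among 14438 genes tested, each represented by its brightest probe.

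The arrays were one-colour Agilent oligonucleotide arrays of total RNA, 2 for each of 5 groups. Leukemias 686, 713 and 760 were lymph node cells of 3 Ebf1+/- Pax5+/- mice with B-cell acute lymphoblastic leukemia (dHet B-ALL), mice that lack 1 copy each of the B-lineage transcription factors Ebf1 and Pax5. The dHet pro-B cells were Ebf1+/- Pax5+/- Rag2-/- cells grown from c-Kit-positive fetal liver on OP9 stromal feeders with 5 ng/ml interleukin 7, 10 ng/ml Flt3 ligand and 10 ng/ml stem cell factor. Wt pro-B cells came from Ebf1+/+ Pax5+/+ mice, as bone marrow cells sorted as Fraction BC. Only the dHet pro-B cells were cultured, were of fetal origin and lacked Rag2, so that these features cannot be told apart from genotype against wt pro-B cells, or from leukemia and tissue against the leukemias, which share the Ebf1+/- Pax5+/- genotype. The labels give no purity for the lymph node cells, and animal ages were not given in the sources used here. They do not say whether both arrays of a group came from separate animals or cultures, so p-values may measure only technical spread. Each leukemia's arrays were therefore averaged into 1 value per mouse for the leukemia comparisons.

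The first leukemia arrays shared slide 1, the second shared slide 2, and the 4 pro-B arrays shared slide 3. Slide and cell type therefore cannot be told apart between leukemias and pro-B cells, although slides 2 and 3 were scanned on the same day. Between 35.7% and 52.4% of probes were well above background, lowest on array 1 of leukemia 686. All 8 pro-B marker genes, among them Cd79a and Vpreb1, were well above background on all 10 arrays. Of 7 T cell markers, Cd4 and Cd28 were well above background on no array, Cd3g on 3 leukemia arrays alone, and Cd3d on all 6 leukemia arrays (-0.94 to 1.34) and on 1 array of each pro-B group (-4.64 to -3.74). The summed T cell marker level was 1.29 to 2.78 in the leukemias, 0.42 to 0.98 in dHet pro-B cells and 0.32 to 0.34 in wt pro-B cells. The summed level of 4 erythroid markers was 0.11 to 6.45, -3.25 to -2.57 and 0.38 to 0.84 in these groups, with Klf1 well above background on no array. That of 6 NK and cytotoxic markers was 2.93 to 5.41, 4.13 to 4.30 and 1.40 to 1.60, with Ncr1 well above background on no array. The summed level of 8 myeloid markers was 3.62 to 7.01, 4.21 to 4.38 and 6.20 to 7.20, with Elane well above background on no array. The part of such cells in the results below was not tested. In such bulk samples a change in the share of a cell type and a change in RNA per cell cannot be told apart.

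Each synthetase matches 1 amino acid with its own tRNAs, and the cytosolic and mitochondrial ribosomes draw on separate pools of charged tRNA. Some of the cytosolic enzymes are held with scaffold proteins in the multisynthetase complex. Several cytosolic synthetase genes are described as targets of ATF4, the transcription factor of the amino acid response, and growth genes driven by MYC include many translation factors. Levels below are log2 processed signals minus the array's 75th percentile, so 1 unit is a doubling, and a difference of levels is a log2 fold change. A gene is called higher or lower where limma's Benjamini-Hochberg adjusted p over all genes tested fell below 0.05.

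The leukemias carried more synthetase RNA than either kind of pro-B cell, and the rise was broad among the cytosolic enzymes. Against wt pro-B cells 18 of 20 cytosolic genes rose and 0 fell, with a median difference of 1.34 over the 20, where 31.3% of all genes tested were higher, 27.5% were lower and the median of all was 0.06. Against dHet pro-B cells 18 of 20 rose and 1 fell, with a median of 1.20, where 21.7% of all genes were higher, 24.4% lower and the median was -0.06. Both comparisons use the same leukemia values. Of the 16 mitochondrial genes 10 rose and 1 fell against wt pro-B cells (median 0.68), and 8 rose and 2 fell against dHet pro-B cells (median 0.68), or 5 rose without the second dHet array and 1 fell with either of the dHet arrays left out. In cultured dHet against wt pro-B cells 2 cytosolic genes rose and 0 fell (median 0.15), and 0 mitochondrial genes rose and 1 fell (median 0.07), where 16.7% of all genes were higher, 14.8% lower and the median was 0.13. At least 2-fold higher levels were found for 12 and 14 cytosolic genes in the leukemias against wt and dHet pro-B cells, and for 6 and 5 mitochondrial genes. Lars2, whose probe followed the slide as described below, was among the mitochondrial genes that fell in both leukemia comparisons.

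With only the leukemia arrays of slide 2, scanned on the same day as the pro-B arrays, 16 cytosolic genes rose and 0 fell against wt pro-B cells (median 1.17), and 16 rose and 1 fell against dHet pro-B cells (median 0.96). With only those of slide 1 the counts were 19 and 0, and 18 and 0. The mitochondrial counts were 8 higher and 1 lower against wt, and 7 higher and 3 lower against dHet pro-B cells, on slide 2. On slide 1 they were 11 higher and 1 lower in each comparison. With slide as a random block 12 cytosolic and 6 mitochondrial genes were higher than in wt pro-B cells, and 12 and 5 higher than in dHet pro-B cells, where 20.6% and 13.0% of all genes were higher. Of all genes 28.3% and 19% were higher than in wt and dHet pro-B cells on slide 2, and 32.0% and 23.9% on slide 1. The rise in the cytosolic genes was thus found with the leukemia arrays of either slide, each time against pro-B arrays on slide 3. These comparisons cannot separate slide from cell type. Fewer genes were called once slide variation was taken into the error.

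The scaling changed how many genes were called higher. Scaled to the array median, all 20 cytosolic and 13 mitochondrial genes were higher than in wt pro-B cells, with 0 and 1 lower. In this setting 44.1% of all genes were higher in place of 31.3%, and the median of all genes moved to 0.63. Of all calls 73.7% were higher in place of 53.3%. Scaled to the 75th percentile of probes well above background on every array, 16 and 7 were higher with 0 and 1 lower. Here 20.5% of all genes and 35.1% of all calls were higher, and the median of all genes was -0.30. The same pair of scalings gave 18 and 17 cytosolic genes higher against dHet pro-B cells. Of all genes 22.8% and 18.3% were higher in place of 21.7%, and of all calls 62.5% and 38.1% in place of 47.1%.

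**Figure D1:**
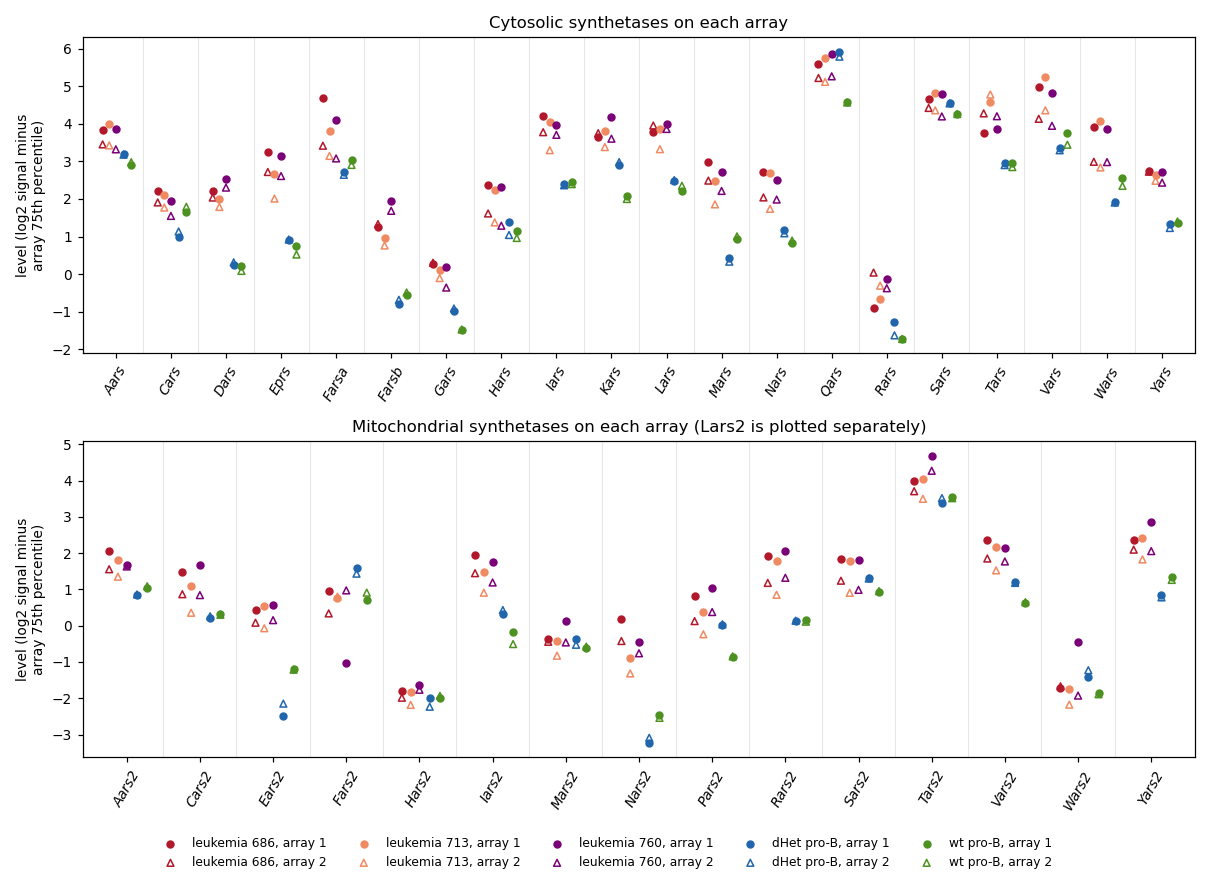
Level (log2 processed signal minus the array's 75th percentile) of 35 synthetases, the Lars2 probe being plotted separately, with 1 point per array: filled circles for the first and open triangles for the second array of a group, red, orange and purple for leukemias 686, 713 and 760, blue for dHet and green for wt pro-B cells. All 6 leukemia points lie above both wt points for 18 of 20 cytosolic genes, a count that was not taken over all genes tested. For several genes the filled leukemia circles (slide 1) lie above the open triangles (slide 2).

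Eprs, Dars, Kars, Lars, Mars, Qars, Iars and Rars encode the enzymes of the multisynthetase complex, and 8 of 8 rose against wt pro-B cells, with a median of 1.50. Against dHet pro-B cells 7 rose and 1, Qars, fell (median 1.38). Of all genes tested 31.3% and 21.7% were higher in these comparisons. Eprs, the enzyme that charges both glutamate and proline tRNAs, read 3.25, 2.67 and 3.15 on the slide 1 arrays of leukemias 686, 713 and 760 and 2.72, 2.01 and 2.61 on their slide 2 arrays. It read 0.91 and 0.92 in dHet and 0.74 and 0.52 in wt pro-B cells, so that the leukemia arrays did not overlap with either. The difference from wt was 2.11 ± 0.22 (SE, 3 mice against 2 arrays, adjusted p = 0.000882), a 4.30-fold rise, and that from dHet pro-B cells 1.82 (adjusted p = 0.00239).

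Dars, the aspartate enzyme, read 2.21, 2.0 and 2.54 on slide 1 and 2.04, 1.79 and 2.30 on slide 2 in leukemias 686, 713 and 760. In dHet pro-B cells it read 0.25 and 0.31, and in wt pro-B cells 0.22 and 0.09. The slides differed less for Dars than for Eprs, and the pro-B groups sat well below all leukemia arrays. Dars was 3.99-fold higher than in wt (1.99 ± 0.18 SE, adjusted p = 0.000597) and 3.65-fold higher than in dHet pro-B cells (1.87 ± 0.18 SE, adjusted p = 0.00131). These values are for its brightest probe, and its other probes, described below, did not rise against wt pro-B cells. Mars, the methionine enzyme, read 3.0, 2.47 and 2.72 on slide 1 and 2.49, 1.86 and 2.21 on slide 2, against 0.42 and 0.33 in dHet and 0.93 and 1.01 in wt pro-B cells. It was the cytosolic gene with the largest difference from dHet pro-B cells, 2.08 ± 0.19 (SE, adjusted p = 0.00116), a 4.23-fold rise.

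Lars, the leucine enzyme, read 3.77, 3.86 and 4.00 on slide 1 and 3.95, 3.32 and 3.86 on slide 2. It read 2.49 and 2.50 in dHet and 2.23 and 2.35 in wt pro-B cells, which gave differences of 1.51 and 1.30 from wt and dHet cells. Iars, for isoleucine, rose by 1.42 and 1.46, and Rars, for arginine, by 1.33 and 1.06. These differences lay near the median of the complex.

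Kars and Qars were the only synthetases called higher in dHet than in wt pro-B cells. Kars, the lysine enzyme, read 3.64, 3.80 and 4.19 on slide 1 and 3.75, 3.38 and 3.60 on slide 2 in the leukemias, 2.91 and 2.98 in dHet and 2.08 and 2.0 in wt pro-B cells. The 3 kinds of cell did not overlap, and dHet pro-B cells lay between the others (0.91 ± 0.24 above wt, 2 arrays against 2, adjusted p = 0.0271; leukemias 0.78 above dHet, adjusted p = 0.00724). Qars, the glutamine enzyme, read 5.59, 5.74 and 5.85 on slide 1, 5.22, 5.12 and 5.26 on slide 2, 5.92 and 5.79 in dHet and 4.59 and 4.57 in wt pro-B cells. Its highest values were thus split between the dHet cells and 1 leukemia array, and wt cells were lowest.

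Qars was 2.42-fold higher in dHet than in wt pro-B cells (1.27 ± 0.29 SE, adjusted p = 0.0144). The leukemias were 1.84-fold above wt (0.88, adjusted p = 0.00197) and 1.31-fold below dHet pro-B cells (-0.39 ± 0.12 SE, adjusted p = 0.0421), with overlapping arrays in the latter. That lower call held in 8 of 23 alternative analyses, and was lost on slide 1 alone (-0.13), without mouse 686 or 713 and without any 1 of the 4 pro-B arrays. Without any 1 of those arrays neither Qars nor Kars passed the test between dHet and wt pro-B cells.

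The scaffold proteins of the complex moved in part with the enzymes. Aimp2 rose by 1.65 against wt and by 2.04 against dHet pro-B cells, and Eef1e1, also called p18, rose by 1.76 and 2.21 (adjusted p = 0.000376 and 0.000481). Eef1e1 read 3.10, 3.22 and 3.17 on slide 1 and 2.73, 2.44 and 2.41 on slide 2, against 0.62 and 0.65 in dHet and 0.96 and 1.22 in wt pro-B cells. Aimp1 rose by 0.66 against wt pro-B cells but differed by -0.15 from dHet pro-B cells (adjusted p = 0.487). Aimp1 was 3.70 on the first array of leukemia 686, between the wt arrays at 3.69 and 3.75, and 4.36 to 4.60 on the other leukemia arrays.

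Among the 12 cytosolic enzymes outside the complex, the Farsb gene rose most. Farsb encodes the beta subunit of the phenylalanine enzyme and Farsa the alpha subunit. Farsb read 1.25, 0.97 and 1.96 on slide 1 and 1.33, 0.76 and 1.69 on slide 2, against -0.79 and -0.68 in dHet and -0.55 and -0.49 in wt pro-B cells. The leukemias were 3.59-fold above wt (1.85 ± 0.28 SE, adjusted p = 0.00284) and 4.18-fold above dHet pro-B cells (2.06 ± 0.28 SE, adjusted p = 0.00328). Farsa read 4.68, 3.80 and 4.10 on slide 1, 3.42, 3.15 and 3.08 on slide 2, 2.72 and 2.64 in dHet and 3.04 and 2.91 in wt pro-B cells. The slide 2 arrays of Farsa lay close above the wt arrays, and its difference of 0.73 from wt (adjusted p = 0.0229) was called in 12 of 23 alternatives. The subunits of this enzyme thus differed in size of change by over 1 log2 unit, a difference that was not tested.

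Gars (glycine), Nars (asparagine), Tars (threonine) and Yars (tyrosine) rose by 1.55, 1.42, 1.34 and 1.24 against wt and by 1.02, 1.15, 1.31 and 1.34 against dHet pro-B cells. Wars (tryptophan) and Vars (valine) rose by 0.99 and 0.98 against wt and by 1.53 and 1.25 against dHet pro-B cells. Hars, for histidine, read 2.38, 2.24 and 2.31 on slide 1 but 1.61, 1.38 and 1.29 on slide 2, against 1.40 and 1.04 in dHet and 1.15 and 0.96 in wt pro-B cells. Its rises of 0.81 and 0.65 were thus carried mainly by slide 1, and overlapped with dHet pro-B cells.

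Aars, the alanine enzyme, rose by 0.70 and 0.46, with levels of 3.84, 3.99 and 3.86 on slide 1, 3.45, 3.42 and 3.32 on slide 2, 3.19 and 3.18 in dHet and 2.91 and 2.98 in wt pro-B cells. The smaller of the Aars rises was called in 9 of 23 alternatives. Sars, the serine enzyme, was the 1 cytosolic gene not called in either leukemia comparison. It differed by 0.28 from wt (95% interval 0.01 to 0.55, adjusted p = 0.0697) and by -0.01 from dHet pro-B cells (-0.28 to 0.26, adjusted p = 0.934). Cars, for cysteine, read 2.21, 2.11 and 1.94 on slide 1 and 1.91, 1.77 and 1.55 on slide 2, which overlapped wt pro-B cells at 1.66 and 1.79 and lay above dHet pro-B cells at 0.99 and 1.14. Cars accordingly rose by 0.85 against dHet pro-B cells only, while its difference from wt was 0.19 (95% interval -0.17 to 0.55, adjusted p = 0.308).

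**Figure D2:**
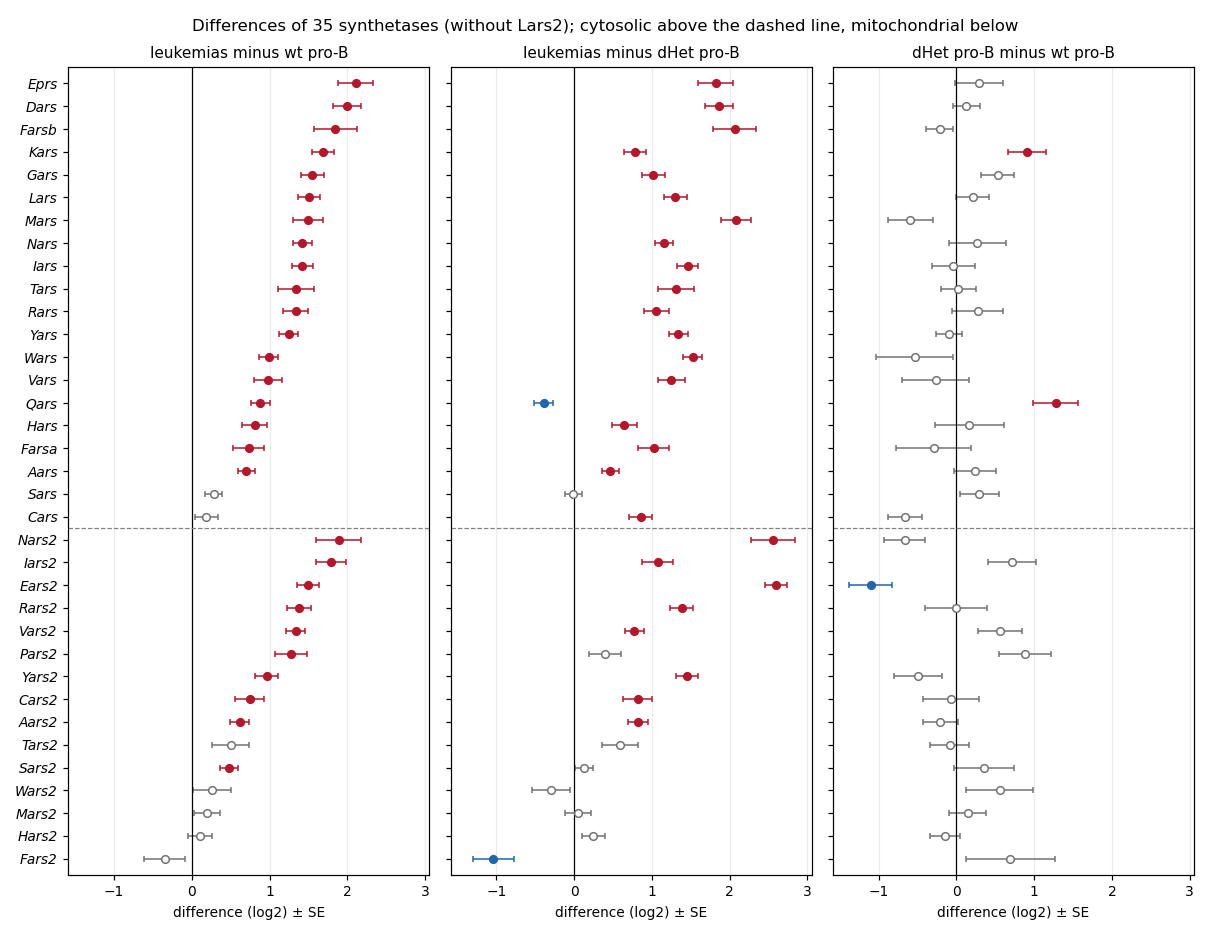
Difference of levels (log2, ± SE) of 35 synthetases in 3 comparisons, leukemias minus wt pro-B, leukemias minus dHet pro-B and dHet minus wt pro-B, with cytosolic genes above the dashed line and mitochondrial genes below. Filled red points were called higher, filled blue points lower and open points were not called. In the third panel Kars and Qars alone are red and Ears2 alone is blue.

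Genes of both structural classes rose, where 31.3% and 21.7% of all genes were higher than in wt and dHet pro-B cells. Class I and class II synthetases have unrelated catalytic folds, and Eprs carries one of each. Against wt pro-B cells 8 of 9 class I genes (median 1.24) and 9 of 10 class II genes (median 1.38) rose, and against dHet pro-B cells 8 of 9 (median 1.30, with Qars lower) and 9 of 10 (median 1.02). Of 13 synthetases described as ATF4 targets, 11 rose against wt (median 1.34) and 12 against dHet pro-B cells (median 1.30), and 0 were called in dHet against wt pro-B cells. Of the 7 others, 7 rose against wt (median 1.33), and 6 rose and 1 fell against dHet pro-B cells (median 1.02). The 2 sets were alike in count, and the difference between them was not tested.

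Several promoters of genes on the ATF4 list hold the sequence that ATF4 binds with its C/EBP partners. RefSeq promoter sequences (GRCm38.p6, 250 bases before to 50 after the start) were found for 26 of the 36 genes, 12 cytosolic and 14 mitochondrial. The C/EBP-ATF response element, TGATGNAA on either strand, was present in 5 of 7 promoters of the ATF4 list, in 0 of 5 other cytosolic promoters and in 0 of 14 mitochondrial ones, against 3.97% of all 32851 promoters of the same length. A 30-base window around 1 match in each of these promoters is shown 5′ to 3′ on the gene's strand with the match in capitals.
Aars, 10 bases after the start, chr8:111033840-111033869: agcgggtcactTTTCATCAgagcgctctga
Gars, 30 bases before the start, chr6:55037960-55037989: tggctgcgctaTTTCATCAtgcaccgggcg
Tars, 15 bases before the start, chr15:11399655-11399684, minus strand: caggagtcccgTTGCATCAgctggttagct
Iars, 8 bases after the start, chr13:49682126-49682155: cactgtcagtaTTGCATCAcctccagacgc
Yars, 4 bases after the start, chr4:129189895-129189924: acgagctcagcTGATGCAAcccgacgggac

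The matches shown are in the reverse orientation, apart from that of Yars, which reads as written. The 5 genes that hold them rose by 0.70 to 1.55 against wt and by 0.46 to 1.46 against dHet pro-B cells. None was called between dHet and wt pro-B cells. As 18 of 20 cytosolic genes rose in each leukemia comparison, these rises do not set the 5 genes apart. Eprs and Sars, the other genes of the ATF4 list with a promoter entry, had no match and differed from wt by 2.11 and 0.28. A match here is a description of the letters and not of binding.

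The E-box CACGTG, a sequence that MYC and related factors can bind, was present in 5 of 26 promoters, 4 of 12 cytosolic and 1 of 14 mitochondrial, against 7.15% of all promoters. Windows are shown with the motif in capitals for Farsb, the cytosolic gene outside the complex with the largest rise, and for Ears2. Ears2 was the mitochondrial gene with the largest rise against dHet pro-B cells.
Farsb, 39 bases before the start, chr1:78488919-78488948, minus strand: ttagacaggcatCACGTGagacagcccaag
Ears2, 22 bases after the start, chr7:122067048-122067077, minus strand: cgcgaaggagccCACGTGtgtgtttctagt

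Aars, Iars and Tars held both motifs. Myc itself read 3.68 to 5.32 on the 6 leukemia arrays, -0.24 and 0.26 in dHet and 1.22 and 1.33 in wt pro-B cells. Myc was called in all 3 comparisons, in the order leukemias above wt above dHet pro-B cells, and Ears2 was the 1 synthetase called in the same order. The other synthetases with an E-box, Aars, Farsb, Iars and Tars, were not called between dHet and wt pro-B cells. A link between Myc and the synthetase levels was not tested.

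The mitochondrial enzymes changed in more varied ways, and 10 of 16 rose against wt pro-B cells. Nars2, the mitochondrial asparagine enzyme, read 0.19, -0.88 and -0.44 on slide 1 and -0.42, -1.32 and -0.76 on slide 2, against -3.23 and -3.09 in dHet and -2.45 and -2.54 in wt pro-B cells. It rose 3.71-fold against wt (1.89 ± 0.29 SE, adjusted p = 0.00286) and 5.88-fold against dHet pro-B cells (2.56 ± 0.29 SE, adjusted p = 0.00189). Iars2, for isoleucine, read 1.95, 1.49 and 1.75 on slide 1, 1.45, 0.91 and 1.19 on slide 2, 0.33 and 0.43 in dHet and -0.16 and -0.51 in wt pro-B cells. The leukemia arrays lay above both pro-B groups for Nars2 and for Iars2, which rose by 1.79 and 1.07 against wt and dHet pro-B cells.

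Ears2, the mitochondrial glutamate enzyme, had the largest rise of any synthetase against dHet pro-B cells. It read 0.42, 0.54 and 0.56 on slide 1 and 0.08, -0.07 and 0.15 on slide 2, against -2.48 and -2.15 in dHet and -1.20 and -1.21 in wt pro-B cells. The 3 kinds of cell did not overlap. The leukemias were 6.04-fold above dHet (2.59 ± 0.14 SE, adjusted p = 0.000467) and 2.81-fold above wt pro-B cells (1.49 ± 0.14 SE, adjusted p = 0.000676). Ears2 was also the 1 synthetase lower in dHet than in wt pro-B cells, 2.15-fold (-1.1 ± 0.27 SE, adjusted p = 0.0203), a call that was lost without any 1 of the 4 pro-B arrays and held in 15 of 23 alternatives.

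Rars2, Vars2, Pars2 and Yars2, for arginine, valine, proline and tyrosine, rose by 1.38, 1.33, 1.27 and 0.96 against wt pro-B cells. Against dHet pro-B cells Rars2, Vars2 and Yars2 rose by 1.38, 0.78 and 1.45, and Pars2 differed by 0.39 (adjusted p = 0.166). Cars2 and Aars2 rose by 0.74 and 0.62 against wt and by 0.81 and 0.82 against dHet pro-B cells. Sars2 rose by 0.48 against wt and differed by 0.12 from dHet pro-B cells (adjusted p = 0.424). As with the cytosolic serine enzyme, the interval against dHet pro-B cells spanned 0 (-0.17 to 0.42).

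Hars2, Mars2, Tars2 and Wars2 were not called in any comparison. Their differences from wt pro-B cells were 0.10, 0.20, 0.50 and 0.26 and those from dHet pro-B cells 0.25, 0.05, 0.59 and -0.30. The widest interval of these, for Wars2 against wt, ran from -0.34 to 0.86, so a rise of the median size of the mitochondrial set lay within it. Wars2 was well above background on 9 of 10 arrays.

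Fars2, the mitochondrial phenylalanine enzyme, went the other way. It read 0.95, 0.76 and -1.02 on slide 1 and 0.34, 0.80 and 0.97 on slide 2, against 1.58 and 1.43 in dHet and 0.72 and 0.91 in wt pro-B cells. The first array of leukemia 760 stood apart from the second. Fars2 was 2.06-fold lower than in dHet pro-B cells (-1.04 ± 0.26 SE, adjusted p = 0.0227), with all 6 leukemia arrays below both dHet arrays, and differed by -0.35 from wt (adjusted p = 0.295). The lower call held in 16 of 23 alternatives.

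Lars2, the mitochondrial leucine enzyme, had the probe with the largest difference of all 36 genes, in the lower direction, and its signal followed the slide. Its only probe (60 bases, mm9 chr9:123371116-123371175, plus strand) read 2.70, 2.89 and 2.98 on slide 1 but 8.42, 8.78 and 7.90 on slide 2 in leukemias 686, 713 and 760. It read 10.98 and 10.53 in dHet and 10.06 and 10.28 in wt pro-B cells. In all 3 mice the slide 1 array was the lower, with a mean slide 1 minus slide 2 difference of -5.51, more than the difference between the leukemia mean and wt pro-B cells. The difference of -4.56 from wt (adjusted p = 0.000171) was -7.31 on slide 1 and -1.80 on slide 2, and was not called with slide as a random block (adjusted p = 0.0955). The difference of -5.14 from dHet pro-B cells (adjusted p = 0.000282) was -7.90 on slide 1 and -2.39 on slide 2, with an adjusted p of 0.089 with the random block.

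Of 5 ribosomal RNA probes, 1 for Rn28s1 and 1 for Rn18s moved with Lars2 from array to array. The probe of Rn28s1, the 28S ribosomal RNA, read -2.61, -2.04 and -2.12 on slide 1, 3.49, 4.38 and 3.18 on slide 2, 7.41 and 6.89 in dHet and 5.58 and 6.26 in wt pro-B cells. Over the 10 arrays its correlation with Lars2 was 0.997, the second highest of the 22302 probes kept. It is given as a description because arrays of a slide share their hybridisation. Probes of other genes correlated with Lars2 about as highly, among them Ipo8 and Acin1 (0.994 each) and Klhl9 (0.992). One Rn18s probe read 6.37 to 7.06 on slide 1, 9.14 to 9.47 on slide 2 and 9.81 to 10.48 on slide 3 (correlation 0.990), while the other stayed between 9.76 and 10.48 on all leukemia arrays. The 2 probes of Rn45s, the ribosomal RNA precursor, did not take the same steps. One read 5.21 to 5.33 on slide 1, 5.45 to 5.96 on slide 2, 7.19 and 7.39 in dHet and 4.84 and 4.98 in wt pro-B cells, and the other 3.59 to 3.67, 4.48 to 5.28, 5.69 and 5.78, and 4.30 and 4.47. Whether the Lars2 probe hybridises to ribosomal RNA was not tested. The first 30 of its 60 bases are printed so that they can be looked up.
Lars2 probe, bases 1 to 30: acgtcgctttttgatccttcgatgtcggct

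Without Lars2, 10 of 15 mitochondrial genes were higher and 0 lower than in wt pro-B cells (median 0.74), and 8 were higher and 1 lower than in dHet pro-B cells (median 0.78).

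**Figure D3:**
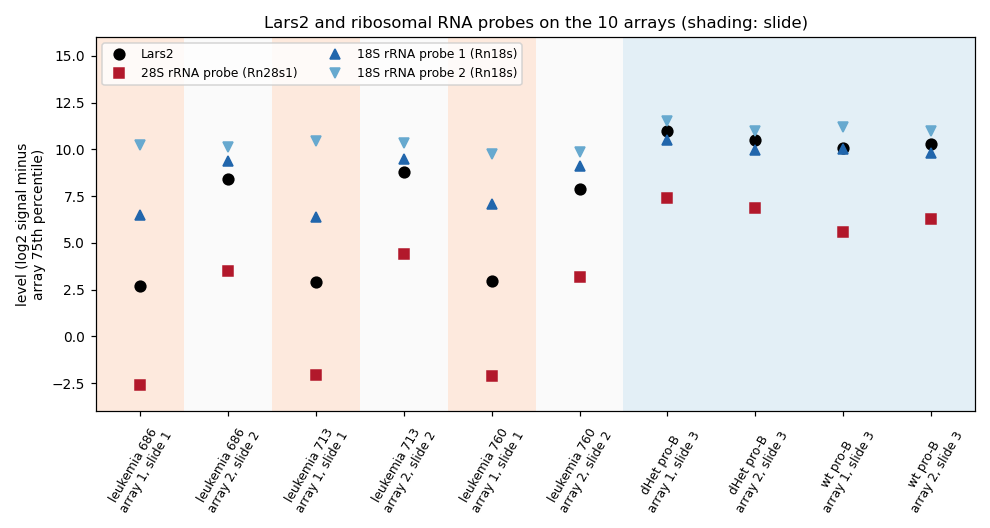
Level of the Lars2 probe and of 3 ribosomal RNA probes (log2 processed signal minus the array's 75th percentile) on the 10 arrays, shaded by slide. Lars2 sits between 2.70 and 2.98 on slide 1, 7.90 and 8.78 on slide 2 and 10.06 and 10.98 on slide 3, and the Rn28s1 probe and 1 Rn18s probe follow the same steps.

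Enzymes for the same amino acid in both compartments did not move by the same amount. Over 13 such pairs the cytosolic difference exceeded the mitochondrial one in 7 against wt and in 8 against dHet pro-B cells, with median gaps of 0.09 and 0.39. The Leu pair, which rests on the Lars2 probe, is included in these counts. Met showed the widest gap apart from Leu, with Mars at 1.49 and Mars2 at 0.20 against wt, and at 2.08 and 0.05 against dHet pro-B cells. Asn went the opposite way, with Nars at 1.15 and Nars2 at 2.56 against dHet pro-B cells. For Arg the values were close against wt pro-B cells, 1.33 for Rars and 1.38 for Rars2. The difference between the compartments as sets was described by counts and medians only and was not tested.

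The slides of the leukemia arrays shifted both sets. The median level of the 20 cytosolic genes was 3.24 to 3.50 on slide 1 and 2.66 to 2.86 on slide 2 in the leukemias, 1.57 to 1.66 in dHet and 1.87 to 1.90 in wt pro-B cells. The mitochondrial median was 1.29 to 1.66 on slide 1, 0.82 to 1.02 on slide 2, 0.28 to 0.34 in dHet and 0.21 to 0.24 in wt pro-B cells. All 6 leukemia medians lay above all 4 pro-B medians in both sets. In all 3 mice 14 of 20 cytosolic and 13 of 16 mitochondrial genes were higher on the slide 1 array than on the slide 2 array, which held for 43.4% of all genes tested.

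**Figure D4:**
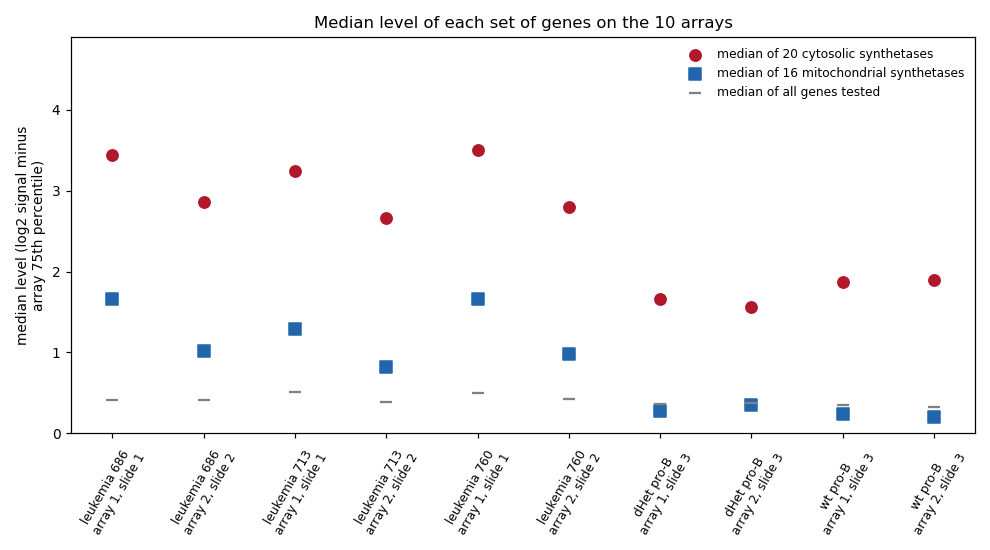
Median level (log2 processed signal minus the array's 75th percentile) of the 20 cytosolic (circles) and 16 mitochondrial (squares) synthetases and of all genes tested (dashes) on each of the 10 arrays. The cytosolic medians of the leukemias, 2.66 to 3.50, lie above those of the pro-B arrays, 1.57 to 1.90, and are higher on slide 1 than on slide 2.

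Few synthetases were called different among the 3 leukemias. Only Farsb differed among them by limma's F test over all genes (adjusted p = 0.0228), 1 of 36 against 16.3% of all genes tested. The spread in this test is that between the 2 arrays of a group, which in the leukemias lay on different slides. The median slide 1 minus slide 2 difference was 0.46 in cytosolic and 0.48 in mitochondrial synthetases, against 0.17 in all genes. The part of this shift in the low count was not tested. With the replicate number, which marks the slide, as a block, leukemia 713 also differed from the others in Nars2 (-0.74, adjusted p = 0.0396, against 0.0749 without it) and in Tars (0.66, adjusted p = 0.0476, against 0.0662). The mean Farsb level was 1.29 in leukemia 686, 0.87 in 713 and 1.82 in 760. The difference from the mean of the others was -0.69 for leukemia 713 (adjusted p = 0.0225), where 6.48% of all genes were lower, and 0.74 for leukemia 760 (adjusted p = 0.0197), where 5.34% were higher. The order of 713 and 760 was the same on each slide, -0.63 and 0.85 on slide 1 and -0.75 and 0.64 on slide 2. All 3 leukemias were above wt in Farsb, by 1.39 to 2.34.

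Taken 1 mouse at a time, all 20 cytosolic genes had positive differences from wt pro-B cells in each leukemia, and 13 were called higher in each, where 26.9%, 26.2% and 27.9% of all genes were higher in leukemias 686, 713 and 760. Of the mitochondrial genes 8, 5 and 8 were called higher than in wt in leukemias 686, 713 and 760, with medians of 0.81, 0.47 and 0.94. None of the 36 genes was called lower than in wt pro-B cells in any single leukemia. Nars2 showed the widest range of mouse means, 0.98, without passing the F test (adjusted p = 0.0967).

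Where a gene had several probes, those near the 5′ end of long genes rose less. For 15 synthetases at least 2 RefSeq probes were well above background on all 10 arrays. Against wt pro-B cells the probe nearest the 3′ end was higher in 12 and lower in 0 of them (median 0.98), and the probe nearest the 5′ end higher in 9 and lower in 1 (median 0.67). Over all 2546 genes with such probes, 41.3% were higher at the 3′ and 38.9% at the 5′ probe, with medians of 0.35 and 0.28. The gap between the medians was thus wider in the synthetases than in all such genes, which was not tested.

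For Dars the 3′ probe rose by 1.99 and a probe 46.9 kb upstream (mm9 chr1:130310284-130311944, minus strand) differed by 0.10 ± 0.16 (SE, adjusted p = 0.613). That probe read -1.03, -0.93 and -0.71 on slide 1 and 0.61, 0.74 and 0.13 on slide 2 in leukemias 686, 713 and 760, against -0.41 and -0.63 in dHet and -0.46 and -0.14 in wt pro-B cells. The slide 1 arrays thus lay below all 4 pro-B arrays and the slide 2 arrays above them, the opposite order of slides to the 3′ probe. Dimmer Dars probes, well above background on 6 and 4 arrays, differed from wt by -0.53 (adjusted p = 0.27) and -0.61 (adjusted p = 0.127). The second of these was 1.56 higher in the leukemias than in dHet pro-B cells (adjusted p = 0.00888), and the first differed by 0.26 (adjusted p = 0.603). Eprs showed a graded series along the gene, 2.11 and 2.27 at its 3′ probes, 1.30 in the middle and 0.40 at the 5′ probe 52.1 kb away (adjusted p = 0.0982). For Lars a second probe near the 3′ end rose by 2.19 and the 5′ probe, 41.9 kb away, differed by 0.52 (adjusted p = 0.0736).

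Cars2 changed direction, rising by 0.74 at the 3′ probe and falling by 0.66 at the 5′ probe 31.6 kb away (adjusted p = 0.0334). Its main probe read 1.49, 1.1 and 1.66 on slide 1 and 0.87, 0.36 and 0.84 on slide 2, against 0.22 and 0.26 in dHet and 0.32 and 0.30 in wt pro-B cells. Vars2, whose probes lie 0.9 kb apart, went against the trend, with 1.33 at the 5′ and 0.38 at the 3′ probe (adjusted p = 0.106). Its main probe read 2.36, 2.18 and 2.14 on slide 1, 1.85, 1.52 and 1.77 on slide 2, 1.21 and 1.18 in dHet and 0.63 and 0.65 in wt pro-B cells. Cars probes disagreed as well, with -0.35 at the probe nearest the 3′ end (adjusted p = 0.0951) and 0.51 at that nearest the 5′ end (adjusted p = 0.196) against wt pro-B cells. A further Aars probe for another transcript, above background on 5 arrays, fell by 1.1 on the log2 scale against wt pro-B cells while both RefSeq probes rose by 0.70 and 0.74.

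The level of 3′ over 5′ probes differed between the arrays as well. Over 809 genes with probes at least 5000 bases apart, the median 3′-minus-5′ level was 1.40 to 1.49 on the slide 1 arrays, 1.04 to 1.35 on the slide 2 arrays, 1.13 and 1.15 in dHet and 1.01 in wt pro-B cells. The measure of 3′ bias was thus highest in the leukemia arrays of slide 1. Its part in the synthetase differences was not tested. With the 5′-most probe used for every such gene, 15 cytosolic and 9 mitochondrial genes were higher than in wt pro-B cells, with medians of 0.98 and 0.55. Against dHet pro-B cells 16 and 7 were higher. Of all genes 30.6% were higher than in wt and 21.4% higher than in dHet pro-B cells in this setting.

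**Figure D5:**
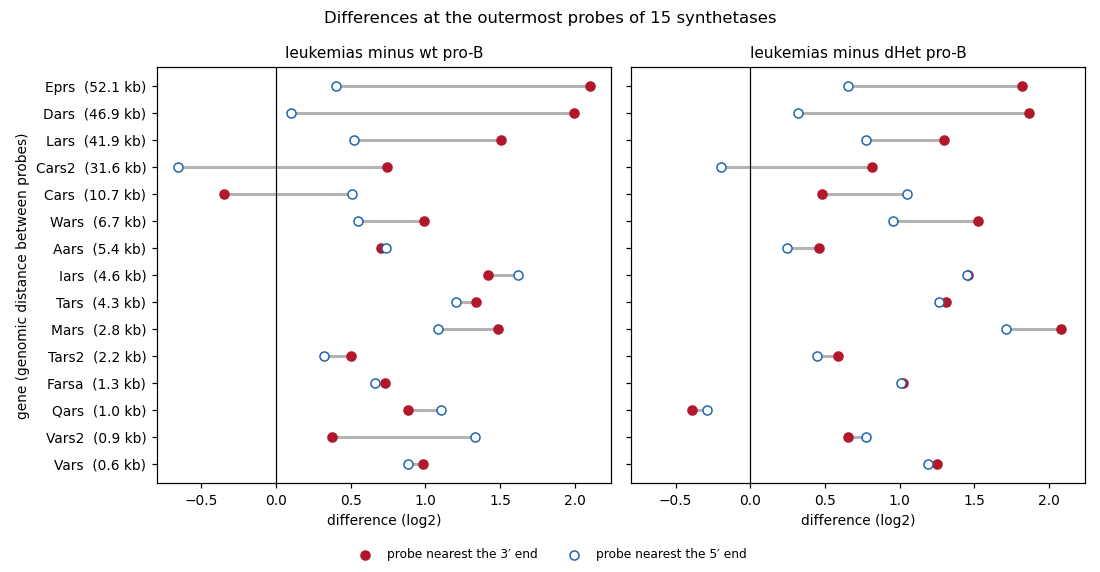
Difference of levels (log2) at the probe nearest the 3′ end (filled) and nearest the 5′ end (open) of 15 synthetases, ordered by the genomic distance between the probes in kb, for leukemias minus wt pro-B (left) and minus dHet pro-B (right). The 4 genes with probes over 30 kb apart, Eprs, Dars, Lars and Cars2, differ less at the 5′ probe in both panels.

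Genes around the synthetases moved in part with them. Of all genes tested 31.3% were higher and 27.5% lower in the leukemias than in wt, and 21.7% and 24.4% than in dHet pro-B cells. Of 29 genes of tRNA maturation, which process, modify and export tRNA, 26 rose and 0 fell against wt (median 1.33), and 23 rose and 0 fell against dHet pro-B cells (median 1.44). Rpp25, a subunit of RNase P, was at least 8.60-fold higher than in wt pro-B cells, where it was not well above background, and Pus1, a pseudouridine synthase, rose by 2.82. Mettl1 and Trmt61a, catalytic subunits of tRNA methyltransferases, rose most against dHet pro-B cells, Mettl1 at least 14.3-fold and Trmt61a by 3.75. Both were lower in dHet than in wt pro-B cells, Mettl1 at least 2.99-fold and Trmt61a by 1.79 on the log2 scale, whereas Trmt1 and Elac1 rose there by 1.22 and 1.07, Elac1 with 1 of 2 wt arrays well above background.

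Genes of RNA polymerase III, which makes tRNA, were called in shares nearer to those of all genes. Of 21 tested 8 rose and 4 fell in each leukemia comparison, with medians of 0.15 and 0.15, where 31.3% and 21.7% of all genes were higher and 27.5% and 24.4% lower. Polr3g (1.81) and Gtf3a (1.55) rose most against wt and Polr3e (2.58) and Polr3d (1.61) against dHet pro-B cells. Bdp1 (-0.93) and Maf1, the repressor of the polymerase (-0.64), fell most against wt pro-B cells, and Polr3c (-1.23) and Maf1 (-1.16) against dHet pro-B cells. In dHet against wt pro-B cells 2 rose and 3 fell.

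For the translation factors the shares of all genes called higher were 31.3% and 21.7% in the leukemias against wt and dHet pro-B cells. In dHet against wt pro-B cells the share was 16.7%. Of 6 cytosolic elongation factor genes 5 rose in the leukemias against wt pro-B cells, led by Eif5a (2.04) and Eef1g (1.61). Against dHet pro-B cells only Eif5a (2.15) and Eef1d (0.82) rose, and Eef1a1 (-0.90) and Eef2 (-0.65) fell. In all, 3 rose in dHet against wt pro-B cells, Eef1b2 by 1.70, Eef1g by 1.46 and Eef2 by 1.33, a comparison in which 2 of 20 cytosolic synthetases rose. Of 16 mitochondrial translation factor genes 9 rose and 1 fell against wt (median 0.70), and 6 rose and 0 fell against dHet pro-B cells (median 0.33), with Tsfm (1.74 and 1.70) and Pet112 (1.18 and 1.23) highest in both.

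The amino acid response genes changed in both directions. Of 30 tested, 14 rose and 6 fell against wt (median 0.62), where 31.3% of all genes were higher and 27.5% lower. Against dHet pro-B cells 14 rose and 4 fell (median 0.75), where 21.7% of all genes were higher and 24.4% lower. In dHet against wt pro-B cells 6 rose and 5 fell (median 0.11), near the 16.7% and 14.8% of all genes. The amino acid transporter Slc1a4 was at least 4.50-fold above wt, where it was not well above background, and Slc7a5 rose by 3.36 against wt and 4.46 against dHet pro-B cells, where 1 of 2 arrays was well above background. Slc7a1, the arginine and lysine transporter, rose by 3.02 against dHet pro-B cells, and Slc1a5, which carries glutamine, fell by 1.32 on the log2 scale. Atf3 fell by 4.77 on the log2 scale against wt pro-B cells, with 4 of 6 leukemia arrays well above background and leukemia levels from -6.45 to -0.67.

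Asns, the asparagine synthetase and a known ATF4 target, went against the tRNA synthetases. It read -3.72, -3.32 and -4.60 on slide 1 and -2.88, -3.69 and -5.98 on slide 2, 1.95 and 1.80 in dHet and -1.23 and -1.30 in wt pro-B cells, with 2 of 6 leukemia arrays well above background. Asns fell by 2.77 on the log2 scale against wt (adjusted p = 0.0102) and fell by 5.90 against dHet pro-B cells (adjusted p = 0.00144), while dHet pro-B cells were 3.14 above wt (adjusted p = 0.00266). The asparagine tRNA synthetases, Nars and Nars2, rose in the leukemias and were not called between dHet and wt pro-B cells. Atf4 itself was lower than in wt (-0.61) and higher than in dHet pro-B cells (0.82), and lower in dHet than in wt pro-B cells (-1.42), as was Ddit3 (-1.24). Pck2 rose by 3.02 in dHet against wt pro-B cells.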

How the data were processed

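Total RNA of 10 samples was labelled with Cy3 and hybridised to one-colour Agilent arrays, per the labels' protocols. The authors deposited scanner files with a background-subtracted processed intensity per spot. Feature Extraction was 10.5.1.1 per the file headers and 9.1 per the submitters' processing notes, and the probe coordinates are mm9 per the file headers. The authors' deposited value table holds log2 values whose normalization is not stated, with array medians of 6.83 to 6.85, a correlation of 0.927 to 0.974 with log2 of the processed intensity, and centring unknown. It served as an alternative.

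Levels are log2 processed intensities minus the 75th percentile of their array. Probes had to be well above background on both arrays of at least 1 group, and the brightest probe stood for a gene. The tests were run in limma 3.58.1 under R 4.3.3 (lmFit and eBayes, Benjamini-Hochberg over all 14438 genes). The leukemia comparisons used 1 mean per mouse, with 3 leukemic mice, 2 dHet and 2 wt arrays in 1 fit. The dHet against wt comparison and the comparison among leukemias used all 10 arrays in 5 groups. The test was checked on simulated data. The number of arrays limits the precision. Same-numbered leukemia arrays shared a slide and deviated together, with correlations of 0.44 to 0.63, but the numbers did not pair them with pro-B arrays.

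Values were given array by array for the synthetases with the 4 largest changes in each direction, those called in opposite directions and those with disagreeing probes. From the other lists the 2 largest called changes in each direction were named, and Asns, Atf4, Aimp1, Aimp2, Eef1e1 and Myc in any case. Further genes and probes were named after their values were seen. Members and lists were chosen with earlier results of these data known. Of 73 probe accessions 61 matched RefSeq, 59 under the same symbol and 2 as Mars1 for Mars. Of 23 alternatives, 3 were chosen after seeing the data: the leukemia arrays of either slide alone and the probe nearest the 5′ end. Some marker genes and 1 sequence are not reported here.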

Additional observations from a re-analysis of the deposited data

Results flagged for a closer look

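Farsb, the beta subunit of the cytosolic phenylalanine enzyme, was the 1 synthetase whose level differed among the 3 leukemias by limma's F test (adjusted p = 0.0228). The mouse means spanned 0.96 on the log2 scale, from 0.87 in leukemia 713 to 1.82 in leukemia 760. Both arrays of 760 read above all arrays of the others, and both arrays of 713 read below them.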

How the results depend on the processing

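The rise of the cytosolic enzymes in the leukemias kept its direction in all 23 alternatives, with 12 to 20 of 20 genes higher than in wt pro-B cells, while the small counts changed more. Leaving out 1 mouse or 1 pro-B array in turn gave 16 to 18 cytosolic genes higher and 0 lower than in wt pro-B cells, 13 to 18 higher and 0 to 1 lower than in dHet pro-B cells, and 0 to 3 higher and 0 lower in dHet than in wt pro-B cells. For mitochondrial genes these counts were 7 to 10 and 1, 5 to 9 and 1 to 3, and 0 and 0 to 1. The 1 cytosolic gene lower than in dHet pro-B cells, Qars, became 0 with array median scaling, normexp background, no filter on dim probes, arrays as replicates, the replicate block, the slide as a random block, slide 1 alone, the 5′ probes and without the leukemia 686 array of fewest detected probes. Cytosolic genes lower in dHet than in wt pro-B cells, 0 in the report, numbered 3 with the percentile over detected probes and with scan day as a block, 2 with quantile normalization, the mean of probes, arrays as replicates, slide 2 alone and the slide block, and 1 with the authors' deposited table, the filter on all 10 arrays, slide 1 alone, the 5′ probes and the replicate block. Cytosolic genes higher there became 0 with normexp and with no filter. Mitochondrial genes higher in dHet than in wt pro-B cells, 0 in the report, numbered 4 with scan day, 3 with arrays as replicates and the slide block, 2 with either slide alone and the replicate block, and 1 with median scaling and quantile normalization. Those lower there, 1 in the report, became 0 with median scaling, normexp, no filter and the deposited table, 3 with the percentile over detected probes, scan day and the slide block, and 2 with slide 2 alone. Mitochondrial genes higher than in dHet pro-B cells became 5 with normexp and the slide block, and higher than in wt 6 with the slide block. Those lower than in dHet pro-B cells became 1 with scan day, slide 1 alone and the replicate block, and 0 with the slide block and arrays as replicates. Those lower than in wt became 0 in the last 2 of these settings and 2 with the 5′ probes. With the replicate block 17 cytosolic genes were higher in each leukemia comparison, but same-numbered pro-B arrays did not deviate together, so the numbers mark no pairing there. Of 2481 single-gene values 67 changed sign, 63 of them without a call on either side and 4 with one: Dars in dHet against wt pro-B cells (-0.76) and Hars in the leukemias against wt (-0.041) with the mean of probes, and Cars2 with the 5′ probe (-0.66 against wt and -0.20 against dHet pro-B cells). Over these 108 single-gene comparisons 2253 values stayed on their side of the threshold, 2190 of them with the same direction, 155 lost the call and 69 gained it. The causes were not tested. Signal near background limits genes such as Asns, well above it on 2 of 6 leukemia arrays, and Wars2, on 9 of 10 arrays.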
